A study of Mus musculus with 22 samples.

Results

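The visual cycle genes examined here are 10 genes that were listed by name, namely Rpe65, Lrat, Rdh5, Rlbp1, Rgr, Stra6, Abca4, Rdh8, Rdh12 and Rbp3. All 10 were found among the 53801 genes of both bulk count tables and among the 19324 genes of the single-cell matrix. The samples came from wild-type (WT) C57BL/6J mice and from AdipoR1-/- (KO) mice, which are homozygous for the Adipor1 tm1Dgen allele, a constitutive disruption of the gene for adiponectin receptor 1, and were bred from heterozygotes crossed back to C57BL/6J. The paper also names a cross of the heterozygotes to an albino background, and the use of both sexes in all experiments. Bulk RNA-Seq was made of the retina and of retinal pigment epithelium (RPE) shaken off the eyecup at P30, in 4 libraries of each genotype for either tissue. Single-cell RNA-Seq was made of dissociated retinae at P19, P25 and P30, with 4 retinae pooled in 1 library per genotype and age; the P30 pair was sequenced apart from the P19 and P25 libraries. The comparison throughout is KO against WT.

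The visual cycle regenerates 11-cis-retinal, the light-sensitive part of the visual pigments, after light has turned it into all-trans-retinal. In photoreceptors the all-trans-retinal is moved out of the disc by ABCA4 and reduced to retinol by RDH8 and RDH12, and RBP3 carries retinoids across the space between the photoreceptors and the RPE. In the RPE, LRAT makes retinyl esters, RPE65 converts them to 11-cis-retinol, and RDH5 oxidises it to 11-cis-retinal, which is bound by RLBP1 in RPE and Müller glia. RGR is a light-sensitive opsin of RPE and Müller glia, and STRA6 takes up retinol delivered by the blood.

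In the annotation (GENCODE M21, build GRCm38), Rpe65 (ENSMUSG00000028174) spans chr3:159599175-159625321, Lrat (ENSMUSG00000028003) spans chr3:82892579-82903973 and Abca4 (ENSMUSG00000028125) spans chr3:122044443-122180123. Rbp3 (ENSMUSG00000041534) spans chr14:33954003-33964216 and Rgr (ENSMUSG00000021804) spans chr14:37034909-37048964. Rdh12 (ENSMUSG00000021123) spans chr12:79208914-79222665, Rdh8 (ENSMUSG00000053773) spans chr9:20818503-20826117, Stra6 (ENSMUSG00000032327) spans chr9:58063788-58153996, Rlbp1 (ENSMUSG00000039194) spans chr7:79374870-79387048 and Rdh5 (ENSMUSG00000025350) spans chr10:128913593-128922888.

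The promoters of 4 of the members that passed a test in either bulk tissue are shown, with members of both kinds, those lower and the 1 higher in KO. Lrat and Rdh8 also passed a test, and their promoters are not shown. Each line holds the 120 bases before the RefSeq transcription start (GRCm38.p6), and capitals mark TAATCC, the core bound by OTX2 and CRX, read on either strand (GGATTA on the other strand), or CATGTG, an E-box bound by MITF (CACATG on the other strand).
Rpe65, chr3:159599061-159599180, plus strand: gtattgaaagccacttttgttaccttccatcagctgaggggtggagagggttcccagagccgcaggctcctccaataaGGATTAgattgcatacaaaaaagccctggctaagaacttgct
Abca4, chr3:122044340-122044459, plus strand: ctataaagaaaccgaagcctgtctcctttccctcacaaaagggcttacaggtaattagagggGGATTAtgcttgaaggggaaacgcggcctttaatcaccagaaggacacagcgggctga
Rbp3, chr14:33953883-33954002, plus strand: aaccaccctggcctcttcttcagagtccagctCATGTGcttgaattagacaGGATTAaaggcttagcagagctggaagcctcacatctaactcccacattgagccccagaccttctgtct
Rdh12, chr12:79208793-79208912, plus strand: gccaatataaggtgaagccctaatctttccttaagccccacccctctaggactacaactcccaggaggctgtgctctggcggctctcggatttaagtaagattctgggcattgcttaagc

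The 10 members have 13 promoter entries of 300 bases, because Stra6 has 4 starts. TAATCC was found in 4 of the 13, at -42 in Rpe65, -58 in Abca4, -69 in Rbp3 and -167 in Rgr, and in 7.06% of the 32851 promoters of the table. CATGTG was also found in 4 of the 13, in Rpe65, Rlbp1, Rbp3 and Rgr, and in 14.2% of all promoters. Rdh12 has neither in its 300 bases, and Lrat and Rdh8, which passed a test but are not printed, have neither as well. The E-box CACGTG was in none of the 13 and in 7.15% of all promoters. The matches are letters in a window and were not tested as binding sites.

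In WT mice the members divided by tissue. Per length (RPKM, mean ± SD, n = 4), Rgr was at 3337 ± 589.7, Rpe65 at 2339 ± 524 and Rlbp1 at 1570.1 ± 305 in WT RPE, followed by Rdh5 at 1115 ± 239, Lrat at 532 ± 96.6 and Stra6 at 309.8 ± 50.5. The ranges of Rlbp1 and of each of its neighbours, Rpe65 and Rdh5, overlapped over the 4 libraries, and those of Rgr and Rpe65 did as well, so only the step from Rdh5 down to Lrat and that from Lrat down to Stra6 were free of overlap. In WT retina the order began with Rbp3 at 649.8 ± 27.5 RPKM and went on with Rdh12 at 164 ± 2.02, Abca4 at 133 ± 4.58, Rlbp1 at 123 ± 7.46 and Rdh8 at 77.7 ± 2.18. Of these, Abca4 and Rlbp1 overlapped. Rpe65, Lrat, Rdh5, Stra6 and Rgr were between 272-fold and 862-fold higher in WT RPE than in WT retina, where none of them averaged over 4.84 RPKM. Rlbp1 was 12.8-fold higher in RPE, and Abca4 was 1.37-fold higher in retina.

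Adipor1 itself was at 589 to 607 CPM (counts per 1000000, scaled within a tissue) in WT retina and 136 to 142 CPM in KO retina, and at 374 to 479 CPM and 139 to 152 CPM in the RPE. The genotypes did not overlap in either tissue, in accord with the labels. Total counts per bulk library were between 20133143 and 38409496. Of the RPE libraries, replicates 2 and 3 of both genotypes carried more retinal RNA than replicates 1 and 4. The sum of 15 rod markers was 20057 and 20351 CPM in WT replicates 2 and 3 against 2532 and 3205 CPM in WT replicates 1 and 4, and 5458 and 7512 CPM in KO replicates 2 and 3 against 1680 and 2178 CPM in KO replicates 1 and 4. Values within replicates 1 and 4 stand beside Rpe65, Lrat, Rbp3 and Rdh8.

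In the retina, 4 of the 10 members passed the test at an adjusted p below 0.05 (edgeR), beside 30.9% of the 19381 genes tested. Rdh12, Abca4 and Rdh8, all on the photoreceptor side, fell, and Rbp3 rose. All 10 members passed the filter on low counts. Over the 10 members, the median log2 fold change was -0.35, beside 0.00 over all genes tested. Genes lower in KO were 14.7% and genes higher in KO 16.2% of those tested. With a fold change of at least 1.5 also required, Rdh12 and Abca4 were left, beside 10.0% of genes. In a bulk library, fewer cells of a type and less RNA per cell cannot be told apart.

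Rdh12, the retinol dehydrogenase of the inner segment, was at 547, 538, 550.1 and 532 CPM in WT retina and at 281, 279, 294 and 274 CPM in KO retina. The 4 KO libraries lay close together and far below the WT libraries. The log2 fold change was -0.94 (SE 0.041, adjusted p = 1.8e-09). Abca4, the transporter whose loss causes Stargardt disease in people, was at 1861, 1735, 1832 and 1736 CPM in WT and at 1131, 1039, 1116 and 1049 CPM in KO. Its groups did not overlap either, with a log2 fold change of -0.73 (SE 0.058, adjusted p = 6.3e-07). Rdh8, the outer segment enzyme that reduces all-trans-retinal, differed less. It was at 122, 127, 120.1 and 118 CPM in WT and at 95.2, 89.7, 101 and 93.5 CPM in KO, again without overlap (log2 fold change -0.36, SE 0.042, adjusted p = 2.2e-05).

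Rbp3, the carrier of the space between photoreceptors and RPE, moved the other way. It was at 3706, 4069, 3755 and 3840 CPM in WT retina and at 5729, 5131, 6540 and 5547 CPM in KO retina, with every KO library above every WT library (log2 fold change 0.58, SE 0.08, adjusted p = 0.0001). Groups without overlap were thus found for 3 members with KO below WT, beside 15.2% of all genes, and for 1 member with KO above WT, beside 16.2%. In a single fit of both tissues, which shares 1 estimate of the spread with the more variable RPE libraries, Rdh12 (adjusted p = 0.46), Rdh8 (0.85) and Rbp3 (0.75) lost their calls and Abca4 (0.00023) kept its own. The spread of Rbp3 was larger in KO (5736 ± 591 CPM) than in WT (3842 ± 161 CPM). Rlbp1, which in the retina comes mainly from Müller glia, was at 383 to 438 CPM in WT and 371 to 412 CPM in KO, and the difference was smaller than the spread between libraries (log2 fold change -0.04, SE 0.052, adjusted p = 0.58).

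**Figure D1:**
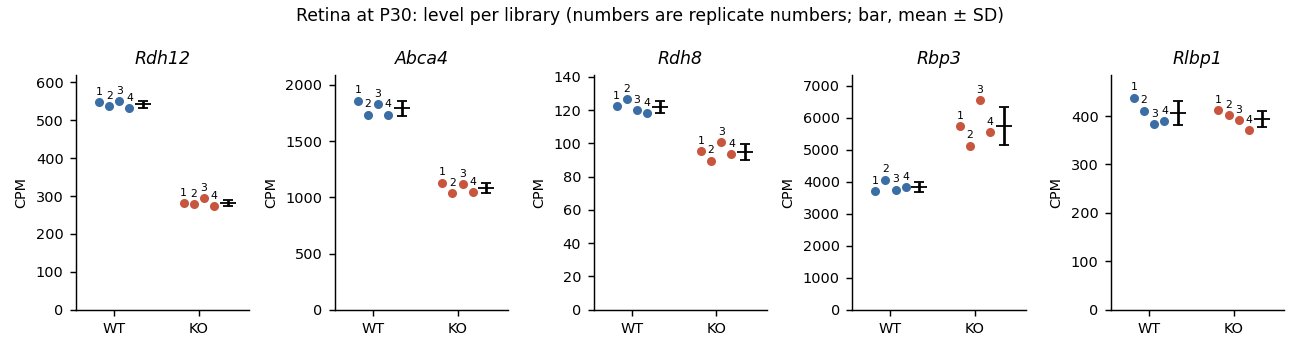
Levels of 5 members in each retina library (CPM, axis from 0), with WT in blue, KO in red, replicate numbers beside the points and the mean ± SD as a bar. Rdh12, Abca4 and Rdh8 are lower in all 4 KO libraries, Rbp3 is higher in all 4, and the Rlbp1 groups overlap.

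Most rod markers fell in KO retina, as Rdh12, Abca4 and Rdh8 did and unlike Rbp3. Of 15 rod markers, 14 fell in KO retina and none rose (median log2 fold change -0.90), and their sum lay between 73621 and 80521 CPM in WT and between 38275 and 43529.6 CPM in KO. Sag, the rod arrestin, was the marker that did not fall (log2 fold change 0.02, adjusted p = 0.82). Per 1000 CPM of rod markers in the same library, Rdh12 was at 6.67 to 7.44 in WT and 6.45 to 7.16 in KO, so that the groups overlapped. On the same scale Abca4 was at 21.5 to 24.8 in WT and 25 to 27.4 in KO, Rdh8 at 1.52 to 1.62 and 2.16 to 2.44, and Rbp3 at 46.3 to 52.2 and 123 to 157. For these 3 genes, every KO library lay above every WT library. The same held for Rlbp1 (5.109 to 5.472 in WT, 9.365 to 9.696 in KO), Rdh5 and Stra6, while Rpe65, Lrat and Rgr overlapped. The rod marker sum itself was lower in KO, and the share of all genes that separate on this scale was not computed. The ratios show unequal change between genes of a library and were chosen after the values were seen, and no test was made of them.

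The RPE members were scarce in the retina libraries and did not pass the test there. Rpe65 was at 2.04, 5.15, 6.59 and 9.65 CPM in WT replicates 1 to 4 and at 2.28, 3.06, 6.26 and 2.48 CPM in KO replicates 1 to 4. Lrat was at 1.46 to 5.99 CPM in WT and 1.74 to 4.5 CPM in KO, and Rgr was at 10.2 to 38.6 CPM and 15.3 to 35.4 CPM. WT replicate 4 was the highest WT library and KO replicate 3 the highest KO library for each of these 3 genes. The log2 fold change of Rpe65 was -0.73 (SE 0.39, adjusted p = 0.18), and it passed the test without WT replicate 1 (-1.02, adjusted p = 0.034) or without KO replicate 3 (-1.16, adjusted p = 0.042). Stra6 was at 5.85 to 8.32 CPM in WT and 5.45 to 8.26 CPM in KO (log2 fold change -0.10, adjusted p = 0.65). Rdh5 was at 6.26 to 10.4 CPM in WT and 8.18 to 14.7 CPM in KO (log2 fold change 0.31, adjusted p = 0.25), and blocking on the replicate number it passed the test (0.32, adjusted p = 0.03). The RPE marker list was at a sum of 326 to 424 CPM in WT retina and 457 to 518 CPM in KO retina, and 5 of its 14 tested members rose. The part of these markers in the values of the RPE members was not tested.

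In the RPE, Rpe65 and Lrat fell, the isomerase and the enzyme that supplies its substrate. These were 2 of the 10 members, beside 6.73% of the 18989 genes tested in the RPE (3.89% lower in KO and 2.84% higher). Both also changed by at least 1.5-fold, beside 4.97% of genes that met both criteria. All 10 members passed the filter on low counts and all 10 had a negative log2 fold change, with a median of -0.60 beside -0.02 over all genes tested. The photoreceptor members Rdh12 (-1.34), Rdh8 (-0.74) and Rbp3 (-0.71) enter this median. All 15 rod markers were negative as well, with a median of -1.24, and the medians of bipolar and amacrine markers were -0.795 and -0.865. The part of retinal RNA in the median of the members was not tested.

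Rpe65 was at 4578, 2751, 4624 and 4326 CPM in WT RPE and at 2141, 2079, 2142 and 2149.8 CPM in KO RPE. The KO libraries hardly differed from each other, WT replicate 2 stood below the other WT libraries, and all 4 WT libraries were above all 4 KO libraries. The log2 fold change was -0.94 (SE 0.17, adjusted p = 0.016), and -0.91 when replicate numbers entered the fit as a block (adjusted p = 0.035). Lrat was at 2632, 1941, 2941 and 2718 CPM in WT and at 1502, 1494, 1459.8 and 1688 CPM in KO, without overlap. Its log2 fold change was -0.74 (SE 0.14, adjusted p = 0.018), and -0.72 with the block (adjusted p = 0.039).

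Both calls moved with single libraries. Rpe65 lost its call without KO replicate 1, 2 or 4 (adjusted p between 0.056 and 0.062), and Lrat without KO replicate 1, 2 or 3 (between 0.056 and 0.069), while the log2 fold changes stayed between -1.07 and -0.87 for Rpe65 and between -0.84 and -0.66 for Lrat. Within the libraries of lower rod marker level, replicates 1 and 4, the log2 fold change of Rpe65 was -1.04 (adjusted p = 0.04) and that of Lrat -0.74 (adjusted p = 0.06). Within replicates 2 and 3 they were -0.79 (adjusted p = 0.2) and -0.71 (adjusted p = 0.18). With the mean rod marker level as a covariate they were -0.98 (adjusted p = 0.008) and -0.77 (adjusted p = 0.011). In a single fit with the retina libraries neither passed (adjusted p = 0.12 and 0.17).

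**Figure D2:**
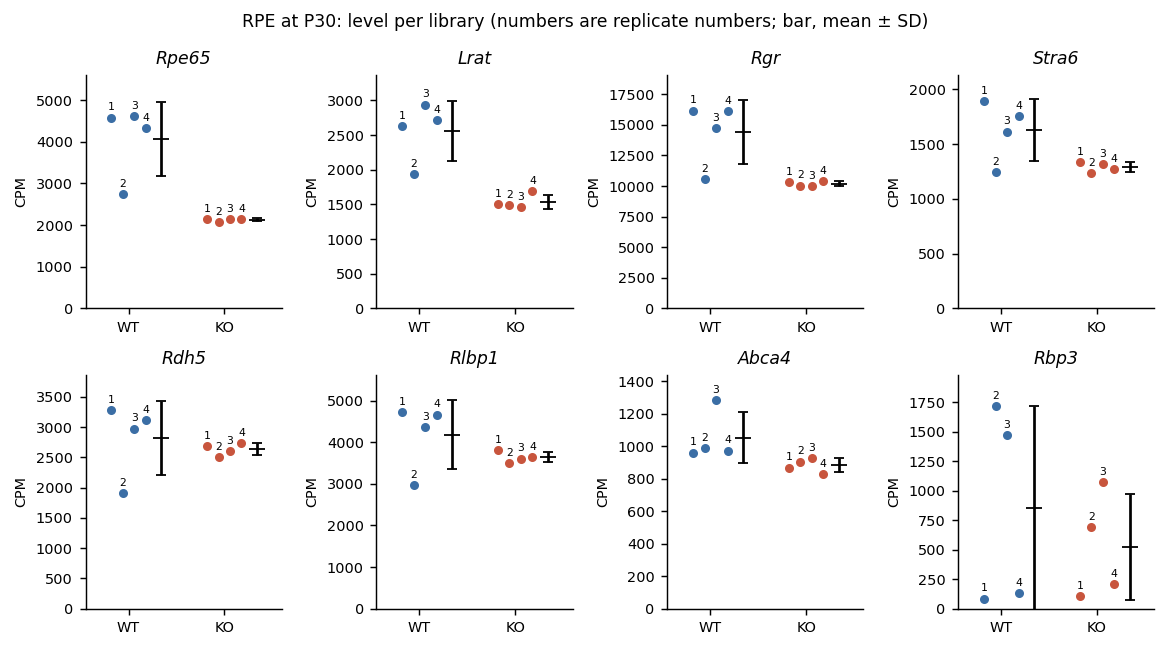
Levels of 8 members in each RPE library (CPM, axis from 0), with WT in blue, KO in red, replicate numbers beside the points and the mean ± SD as a bar, which for Rbp3 in WT is cut off at 0. For Rpe65, Lrat, Rgr and Abca4 all KO libraries lie below all WT libraries. WT replicate 2 is the lowest WT library for 6 of the 8 members, and Rbp3 is high in replicates 2 and 3 of both genotypes.

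The other RPE members were lower on average in KO without passing the test in edgeR. Rgr, the most abundant member, was at 16166, 10578, 14712 and 16110.3 CPM in WT and at 10349, 10033, 10012 and 10397 CPM in KO. The lowest WT library, replicate 2, was close to the KO libraries, and the log2 fold change of -0.50 (SE 0.17) had an adjusted p of 0.14. DESeq2, which called 2701 of 18989 genes in RPE, called Rgr as well (-0.50, adjusted p = 0.0034). Stra6 was at 1243 to 1894 CPM in WT and 1237 to 1333 CPM in KO (log2 fold change -0.34, SE 0.13, adjusted p = 0.2). Without WT replicate 2, Rgr (-0.61, adjusted p = 0.0021), Stra6 (-0.43, adjusted p = 0.011) and Rlbp1 (-0.32, adjusted p = 0.018) passed the test as well, so that 5 members fell in place of 2. That fit called 1585 of 19108 genes, 1024 of them lower, against 1278 with 739 lower in all libraries. Within replicates 1 and 4 the log2 fold changes of Rbp3 (0.55, adjusted p = 0.52) and Rdh8 (0.71, adjusted p = 0.46) turned positive, and neither passed. Within replicates 2 and 3 Rdh12 passed (-1.45, adjusted p = 0.042), and within replicates 1 and 4 it did not (-0.46, adjusted p = 0.48).

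Rdh5, which oxidises 11-cis-retinol, was at 3275, 1916, 2976 and 3116 CPM in WT and at 2692, 2508, 2608 and 2742 CPM in KO. The KO libraries lay between the lowest and the next WT library (log2 fold change -0.10, SE 0.17, adjusted p = 0.77). Rlbp1, the carrier of 11-cis-retinoids, was at 2961 to 4720.3 CPM in WT and 3502 to 3811 CPM in KO (log2 fold change -0.20, SE 0.16, adjusted p = 0.52). Abca4, which is also made in the RPE, was at 961, 991, 1286 and 974 CPM in WT and at 869, 906, 928 and 829.6 CPM in KO. Its groups did not overlap, but the log2 fold change of -0.25 (SE 0.11) did not pass the test (adjusted p = 0.25). Groups without overlap and with KO below WT were found for 4 members, Rpe65, Lrat, Rgr and Abca4, beside 7.81% of all genes, and for none with KO above WT, beside 7.37%.

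RPE markers that are no members gave a scale within each library. Of 15 RPE markers, 1 rose and none fell, with a median log2 fold change of -0.06. Per 1000 CPM of these markers, Rpe65 was at 150.4, 126, 164 and 125 in WT and at 68.7, 72.5, 71.9 and 68.3 in KO, and Rgr was at 467 to 531 in WT and 330.4 to 350.0 in KO. WT replicate 2 stood within the WT range for both genes on this scale, but not with its main marker left out (below). Lrat (78.7 to 104 in WT, 48.2 to 53.7 in KO), Rlbp1 (135.0 to 155, 116 to 122), Stra6 (50.9 to 62.2, 40.5 to 44.2) and Rdh5 (87.7 to 108, 86.3 to 87.6) did not overlap on it either, with KO below WT. Ptgds, a prostaglandin synthase, made up 65.8% to 75.3% of the marker sum. With Ptgds left out, Rpe65 was at 368 to 619.8 in WT and 243 to 292 in KO, Lrat at 260.0 to 394 and 170.3 to 211, and Rgr at 1417 to 1972 and 1173 to 1363, still without overlap. WT replicate 2 was then again the lowest WT library for Rpe65, Lrat and Rgr. On that scale Rdh5 (257 to 399 in WT, 305 to 355 in KO), Rlbp1 (397 to 586, 432 to 491) and Stra6 (167 to 223, 151 to 179) overlapped. The gap of Rdh5 on the full scale was narrow, from 87.57 in the highest KO library to 87.69 in the lowest WT library. These ratios were chosen after the values were seen and were not tested. The share of all genes that separate on either scale was not computed.

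The photoreceptor members in the RPE libraries followed the rod markers. Rbp3 was at 86.2, 1717, 1472 and 132 CPM in WT RPE and at 109, 691, 1076 and 209 CPM in KO RPE. It was high in replicates 2 and 3 of both genotypes, and the groups overlapped (log2 fold change -0.71, SE 1.07, adjusted p = 0.73). Rdh12 was at 8.95, 112, 103 and 13.4 CPM in WT and at 6.54, 32.1, 45.7 and 9.45 CPM in KO (log2 fold change -1.34, SE 0.95, adjusted p = 0.47), and Rdh8 did not exceed 24.4 CPM in WT or 12.9 CPM in KO. With the rod marker level as a covariate, Rbp3 turned from lower to higher in KO (0.92, adjusted p = 0.00076), as did Rdh8 (0.94, adjusted p = 0.0081), and Rdh12 was at -0.02 (adjusted p = 0.98).

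**Figure D3:**
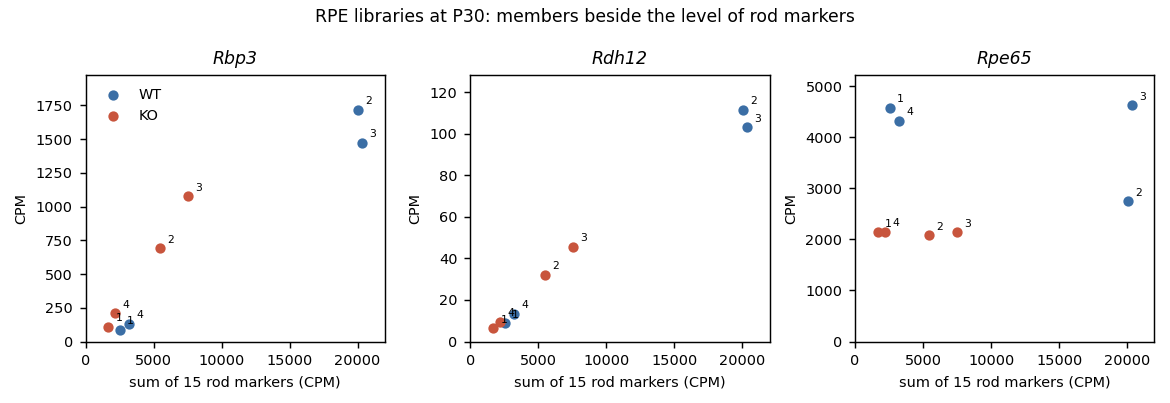
Level of Rbp3, Rdh12 and Rpe65 (CPM) against the summed level of 15 rod markers (CPM) in the 8 RPE libraries, with WT in blue, KO in red and replicate numbers beside the points. Rbp3 and Rdh12 are highest in the libraries with most rod marker RNA, whereas Rpe65 is between 2079 and 2149.8 CPM in all KO libraries at rod marker sums from 1680 to 7512 CPM.

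Lens and microglia markers also differed between RPE libraries. The sum of 8 lens markers was 32.3, 438, 34.3 and 913 CPM in WT RPE and 17.8 to 41.8 CPM in KO RPE, highest in WT replicates 2 and 4, and 2 of the 8 fell. All 10 microglia markers had a positive log2 fold change and 8 rose, with sums of 435 to 693 CPM in WT and 801 to 891 CPM in KO. The part of either list in the values of Rpe65 and Lrat was not tested.

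**Figure D4:**
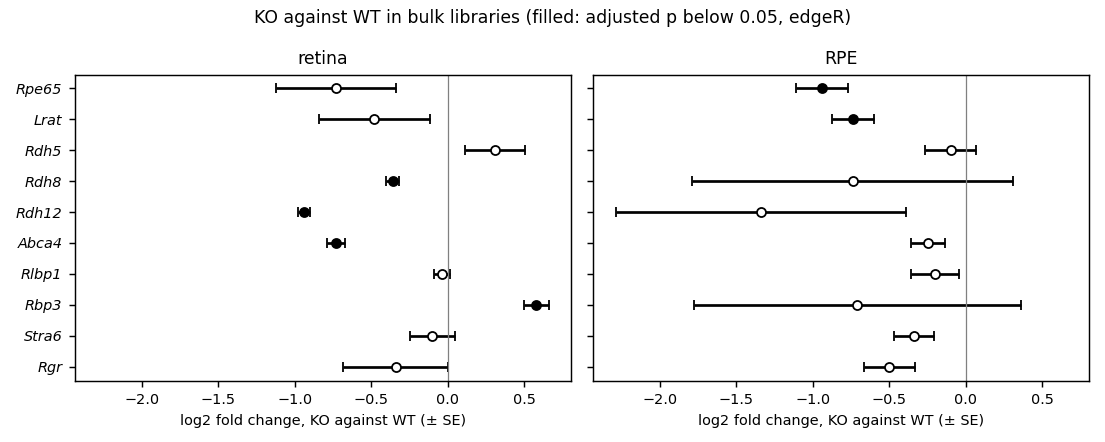
Log2 fold change of each member, KO against WT, in retina (left) and RPE (right), with SE bars and filled points for an adjusted p below 0.05 in edgeR's quasi-likelihood test. Rdh12, Abca4, Rdh8 and Rbp3 are filled in the retina, Rpe65 and Lrat in the RPE, and the wide bars of Rbp3, Rdh8 and Rdh12 in the RPE reach from 0.95 to 1.07 to either side.

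The genotype effect itself was set against the other tissue in a fit of all 16 libraries, with an interaction term for genotype and tissue. None of the 10 members passed in edgeR, beside 8.84% of 21068 genes (5.73% with a lower and 3.11% with a higher KO effect in RPE). Abca4 was closest, with an effect in RPE that was 0.49 higher on the log2 scale than in retina (SE 0.15, unadjusted p = 0.0047, adjusted p = 0.052), and was the only member with an unadjusted p under 0.05. It passed with DESeq2 (0.51, adjusted p = 0.0079), with limma-voom (0.50, adjusted p = 0.024), with the replicate block (0.50, adjusted p = 0.028) and without WT RPE replicate 3 (0.62, adjusted p = 0.0011). For Rbp3 the difference was -1.28 (SE 1.15, adjusted p = 0.55).

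Over the 16 bulk libraries, the genes whose log2 CPM was most like that of Rpe65 were Rgr (Pearson's r = 0.999), Lrat (0.999) and Adipor2 (0.997), of 15071 genes compared. For Abca4 they were Optn (0.960), 6430571L13Rik (0.955) and Dnaja4 (0.949). These values describe the separation of the 2 tissues and the genotypes in the same libraries and carry no test.

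Of 36 other retinoid genes, 32 were tested in the retina and 14 passed, 9 lower and 5 higher, beside the 30.9% of all genes. Their median log2 fold change was -0.08. Scaled by library totals, which moved the median of all genes to 0.114, 13 passed, 4 lower and 9 higher. Opn1sw, the short-wavelength cone opsin, fell by 0.28 on the log2 scale (adjusted p = 0.013). Of the enzymes that reduce retinal or move retinoids, Dhrs3 (-0.48, adjusted p = 9.8e-05), Rdh11 (-0.18, adjusted p = 0.017) and Scarb1, a lipoprotein receptor that takes up carotenoids (-0.45, adjusted p = 3.6e-06), fell. Aldh1a1, which makes retinoic acid, rose (0.41, adjusted p = 0.0089), as did the retinoic acid hydroxylases Cyp26a1 (1.03, adjusted p = 0.0013) and Cyp26c1 (2.56, adjusted p = 0.00041), and the receptor Rarb (0.43, adjusted p = 0.0015). Cyp26a1 and Cyp26c1 were low, with WT means of 1.56 and 0.13 CPM. Other genes that fell were Rxra, Bco2, Dgat1 and Degs1, by 0.15 to 0.49 on the log2 scale. Degs1 passed in 3 of the 8 fits that left out 1 library and not with the replicate block (adjusted p = 0.052). With the block, Ttr (0.61, adjusted p = 0.0069) and the receptor Rarg (0.30, adjusted p = 0.024) passed in the retina as well.

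In the RPE 33 of these 36 genes were tested and 5 passed, all lower, beside 6.73% of all genes, and their median log2 fold change was -0.11. DESeq2 called 9, 6 lower and 3 higher (Bco1, Cyp26a1 and Ttr), and with the replicate block Bco1 passed in edgeR too (1.07, adjusted p = 0.039). Rdh10, which can also oxidise 11-cis-retinol, went from 1970.4 ± 413 CPM in WT to 1079 ± 39 CPM in KO (log2 fold change -0.87, SE 0.16, adjusted p = 0.016). It passed in 5 of the 8 fits that left out 1 library and within replicates 1 and 4 (-0.99, adjusted p = 0.037), but not within replicates 2 and 3 (-0.70, adjusted p = 0.18). Scarb1 (-0.54, adjusted p = 0.0016), Dhrs3 (-0.59, adjusted p = 0.005) and Rbp4, the carrier of retinol in blood (-1.78, adjusted p = 0.01, at 4.63 CPM in WT), fell as well. Ttr, the partner of RBP4 in blood and an abundant RPE transcript, had a WT mean of 18881 ± 3613 CPM and a KO mean of 24746 ± 702 CPM, a difference that did not pass (0.39, adjusted p = 0.29). In the interaction test, the KO effect differed between tissues for Rdh10 (RPE minus retina -0.99, adjusted p = 0.0033), Retsat (-0.45, adjusted p = 0.024) and Rxra (0.53, adjusted p = 0.004).

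The single-cell libraries held 26764 cells, 2558 to 5633 per library, with medians of 1349 to 4357 UMIs per cell, and 49 barcodes occurred in more than 1 library. Cells were clustered without the members. Rod clusters held 786 to 2016 cells per library, Müller glia clusters 129 to 532 and cone clusters 112 to 370. The RPE-like cluster held only 82 cells, 4 to 26 per library, among whose leading genes were Pmel, Dct and Mlana of the RPE marker list. Different clusters held most of the rods of the 2 genotypes: KO rods were mainly in clusters 0 and 1, WT rods in clusters 2 and 5. Cluster 40, with 122 rods of which 109 came from the KO library at P25, had a median UMI count 2.48 times that of its libraries. Values over class sums are UMI CPM, the UMIs of a gene per 1000000 UMIs of the class, and the intervals are exact 95% Poisson intervals that cover counting error only.

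In rods, Rbp3 rose and Rdh12 fell over the 3 ages, as 2 of the 7 members that could be tested there, beside 4.59% of 12128 genes (3.17% higher and 1.43% lower in KO). Rbp3 was at 2104, 1909 and 1133 UMI CPM in KO rods at P19, P25 and P30 and at 823, 905 and 863 UMI CPM in WT rods. Each KO library was above the WT library of its age, with log2 ratios of 1.35 (interval 1.25 to 1.46), 1.08 (0.98 to 1.18) and 0.39 (0.30 to 0.48). Over the 3 ages the log2 fold change was 0.95 (SE 0.18, adjusted p = 0.012, limma with 2 residual degrees of freedom). Without P19 it was 0.77 and did not pass (adjusted p = 0.26), and without cluster 40 it was 0.87 (adjusted p = 0.0015). Within the batch of P19 and P25 it was 1.19 (adjusted p = 4.8e-09, 1 residual degree of freedom), and the other batch held a single pair. That fit called 1593 of 11593 genes, against 557 of 12128 over the 3 ages.

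Rdh12 was at 981, 748 and 893 UMI CPM in KO rods and at 1529, 1308 and 1256 UMI CPM in WT rods, lower in KO at each age. The log2 ratios were -0.64, -0.81 and -0.49, and over the ages the log2 fold change was -0.63 (SE 0.15, adjusted p = 0.04). It lost the call without P19 (-0.62, adjusted p = 0.34) and without P25 (-0.56, adjusted p = 0.22). Abca4 was at 292, 273 and 96.6 UMI CPM in KO and 350.1, 372 and 132 UMI CPM in WT rods. It was lower in KO at each age, but did not pass over the ages (-0.37, SE 0.13, adjusted p = 0.15), and passed without P30 (-0.38, adjusted p = 0.047). Rdh8 had only 2 to 41 UMIs per library in rods (-0.28, SE 0.39, adjusted p = 0.76). This SE was larger than the size of the bulk retina change (-0.36), and power at this depth was not calculated.

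Bipolar and amacrine cells held low levels of Rbp3 and Rdh12, whereas cones held a high level of Rbp3. Bipolar cells had an Rbp3 level of 89.8 to 145 UMI CPM and an Rdh12 level of 31.9 to 93.4 UMI CPM, and amacrine cells had 17.6 to 67.9 UMI CPM of Rbp3 and 21.5 to 42.0 UMI CPM of Rdh12, far under the rod values. In cones Rbp3 was at 3122 and 2938 UMI CPM in KO against 2358 and 2090.0 UMI CPM in WT at P19 and P25, and at 857 against 1083 UMI CPM at P30, where the cone class had 198 KO and 112 WT cells. Cone Rdh12 was at 307 to 483 UMI CPM in KO and 346 to 502 UMI CPM in WT. No test was made in cones.

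**Figure D5:**
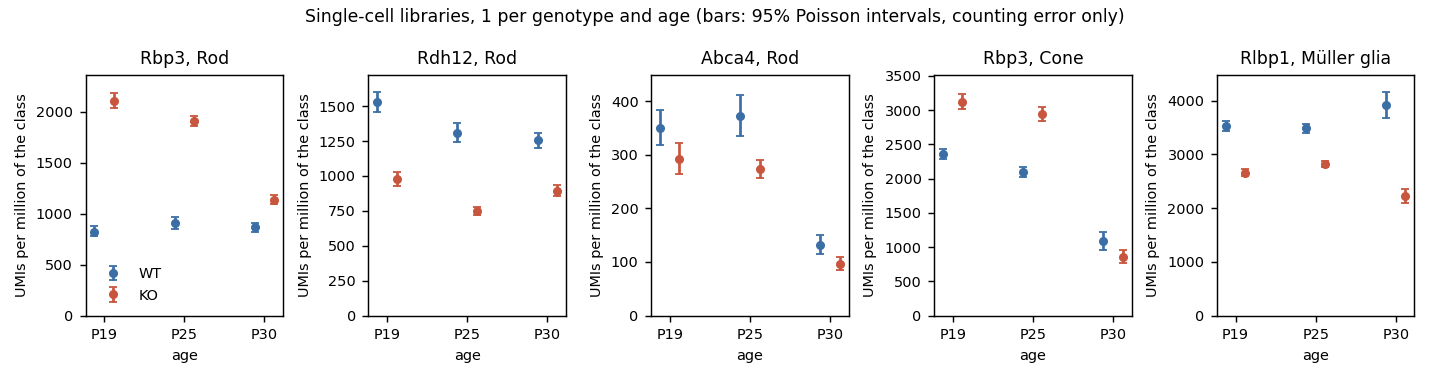
UMI CPM of the class at P19, P25 and P30 (axis from 0), with WT in blue and KO in red, 1 library per point, and bars for exact 95% Poisson intervals. In rods Rbp3 is higher and Rdh12 lower in KO at each age, in cones Rbp3 is higher in KO at P19 and P25 only, and in Müller glia Rlbp1 is lower in KO at each age.

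In Müller glia, Rlbp1 was at 2659, 2818 and 2221 UMI CPM in KO and at 3524, 3484 and 3918 UMI CPM in WT. Every KO library was below every WT library, with log2 ratios of -0.41, -0.31 and -0.82 by age. Over the ages the log2 fold change of -0.38 (SE 0.13) did not pass (adjusted p = 0.3), and it passed without P19 (-0.44, adjusted p = 0.022). None of the 6 members tested in Müller glia passed in limma, beside 0.816% of 12494 genes (0.768% higher and 0.048% lower in KO). At an unadjusted p under 0.05 there were 4, namely Rbp3, Rgr, Rlbp1 and Rdh5, beside 1536 of the 12494 genes. EdgeR on the UMI sums called 2, Rbp3 and Rgr, beside 873 of 12494. Rgr had 22, 14 and 2 UMIs in KO and 26, 27 and 7 in WT Müller glia (log2 fold change -1.48, SE 0.41, adjusted p = 0.2). Rbp3 was at 85.7 to 105 UMI CPM in KO and 24.7 to 55.5 UMI CPM in WT Müller glia (1.23, SE 0.22, adjusted p = 0.065). Amacrine cells held 45.7 to 67.9 UMI CPM of Rbp3 in KO and 17.6 to 25.9 UMI CPM in WT, and the part of free RNA in the Müller glia values was not tested. In the rod class Rlbp1 reached 229 UMI CPM in the KO library at P25 and 9.85 to 74.1 UMI CPM elsewhere, and without cluster 40 its log2 fold change over the ages went from 0.35 to -0.76.

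The RPE-like cells were too few for a test, since no library held 50. They contained 266 Rpe65 UMIs, against 7 in rods, 2 each in amacrine and bipolar cells, 1 in Müller glia and 0 in cones. Rpe65 had 55, 15 and 30 UMIs in KO and 44, 24 and 98 UMIs in WT RPE-like cells at P19, P25 and P30. In UMI CPM, KO and WT were at 827 (interval 623 to 1080) and 556 (404 to 746) at P19, at 1082 and 1426 at P25, and at 1094 (738 to 1560) and 3746 (3040 to 4560) at P30. Rgr was at 3114 and 2400 UMI CPM at P19, at 3606 and 4041 at P25 and at 3537 and 10930 at P30. At P30, from 12 KO and 8 WT cells, Rpe65, Rgr, Rdh5 and Rlbp1 had log2 ratios of -1.78, -1.63, -1.33 and -1.34, whereas at P19 the ratios were 0.57, 0.38, 0.22 and 0.51. Lrat was at -1 (interval -2.2 to 0.12) and Stra6 at -0.39 (-2.72 to 1.83) at P30, and at 0.53 and 1.61 at P19. For Rdh5 the ratio was 0.85 at P25, and its log2 fold change in bulk RPE at P30 was only -0.10. Rdh8 had no UMI in these cells.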

How the data were processed

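Bulk RNA-Seq libraries (16) and single-cell libraries (6) of WT and AdipoR1-/- mice were analysed, grouped by their labels. The authors deposited raw counts per Ensembl gene for the retina and the RPE, and 53620 of 53801 identifiers had a symbol. The deposited single-cell values are on a natural log scale: 2 log steps had been applied to counts scaled to 10000 per cell, and inverting both gave whole UMIs for 100.0% of values within 0.01 in all 26764 cells. The submitters' processing notes name Cell Ranger 2.1, Seurat 3.2.2, edgeR 3.20.9, HOMER and mm10, and mm10 is the only build named. The aligner, the annotation and the use of strand in the bulk counting were not given in the sources used here.

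Each bulk tissue was fitted with edgeR 4.0.16 (TMM, filterByExpr, quasi-likelihood test, Benjamini-Hochberg over all genes tested, call at an adjusted p below 0.05), with genotype as the only term, and an interaction fit joined both tissues. The study gives mice as the replicates of the bulk libraries, 4 per group. Replicate numbers were checked as pairs: deviations of same-numbered libraries correlated at 0.157 to 0.218 in retina and 0.287 to 0.655 in RPE, above 0.1 in each pair. Differently numbered libraries reached up to 0.173 in retina and 0.617 in RPE, so a shared number was not always the closest match. The blocked fit is given where it changes the call of a gene named. Cells were clustered without the members and the other retinoid genes (scanpy 1.11.5, Leiden resolution 1.0, 50 clusters), classes were named from marker lists, 5892 cells stayed unnamed, and no doublet caller was run. UMIs were summed per class and library where every library held 50 cells, and log2 CPM (prior count 2) were fitted in limma 3.58.1 with age as a term, since each genotype had 1 library per age. UMI intervals are exact 95% Poisson intervals. RPKM used summed exon lengths. All 10 members are named. Of 36 other retinoid genes those called are named, with Ttr as an abundant RPE transcript, except that some are counted but not reported here by name. The members and lists were chosen with earlier results of these data known. Scripts were tested on simulated counts. DESeq2 1.42.0, limma-voom, other scalings, filters, clusterings, left-out libraries and a rod marker covariate were tried as alternatives.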

Additional observations from a re-analysis of the deposited data

Results flagged for a closer look

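In groups of 4 libraries, a library was marked when its gap to the nearest other library, divided by the range of the group, was above Dixon's critical value, which chance alone does in about 1 in 20 groups. In WT RPE, Rpe65 was at 2751 CPM in replicate 2, a gap of 0.841 of the range. In KO RPE, Rpe65 was at 2079 CPM in replicate 2 (0.872), in a group that spans only 2079 to 2149.8 CPM. Abca4 was at 1286 CPM in WT RPE replicate 3 (0.909), and Rgr was at 35.4 CPM in KO retina replicate 3 (0.983).

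The KO effect of Rdh10, Retsat and Rxra differed between RPE and retina in edgeR's interaction test. The effect in RPE was lower than in retina for Rdh10 (-0.99, adjusted p = 0.0033) and Retsat (-0.45, adjusted p = 0.024), and higher for Rxra (0.53, adjusted p = 0.004).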

How the results depend on the processing

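Of the 4 members called in retina, a single fit of both tissues left 1 and a fold change of at least 1.5 left 2, and leaving out 1 library gave 4 to 5. Of the 14 other retinoid genes called there, the same settings left 7 and 4, and leaving out 1 library gave 12 to 15. In RPE, 2 members were called, 0 in the single fit, 4 with the rod marker covariate, 1 within replicates 1 and 4, 1 within replicates 2 and 3, and 0 to 5 without 1 library. The other retinoid genes called in RPE went from 5 to 9 with DESeq2, 9 in the single fit, 9 with the covariate, 1 and 2 within those replicates, and 3 to 7 without 1 library. With the rod marker covariate Rbp3 (0.92) and Rdh8 (0.94) reversed in RPE. The fits within replicates 1 and 4 or 2 and 3 were chosen after seeing the data. For the interaction, DESeq2, limma-voom and the replicate block each called 1 member in place of 0, and leaving out 1 library gave 0 to 1. With the replicate block, 5 members passed in retina and 2 in RPE, and 15 and 7 of the other retinoid genes. In rods, leaving out 1 age gave 0 to 4 members in place of 2. In Müller glia, 0 became 2 with edgeR, 1 with a minimum of 100 UMIs, 2 at a Leiden resolution of 2.0, and 1 to 2 without 1 age. The cause of these changes was not tested. Scaling by library totals moved the median of all genes in retina to 0.114 and kept the calls of the members, and of the members not called there, Rlbp1 (0.07) and Stra6 (0.01) changed sign in retina. The RPE-like alternatives were not run, since no library held 50 such cells. The age fits rest on 2 residual degrees of freedom. Those that leave out 1 age, and the Müller glia fit at a Leiden resolution of 2.0, rest on 1. Depth limits Rdh8 in rods.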
